A study of Mus musculus with 13 samples.

Results

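Interleukin 6 and 9 other inflammatory cytokine genes were followed across RNA-seq libraries of mouse mesenchymal stromal cells (MSCs), which are connective-tissue cells that support blood formation in the marrow. The 10 genes, Il6, Lif, Il11, Il1a, Il1b, Tnf, Ifng, Il10, Il15 and Il33, were taken by symbol, and all 10 were found among 33433 gene entries. They make up the secreted inflammatory signals named for this report and were not chosen by a cutoff on their values. The 13 libraries, all of mice on the C57BL/6 background, comprised 4 recovered, 6 pre-leukemic and 3 healthy MSC samples sorted from nucleated cells of marrow and compact bone. Recovered cells match the protocol's pre-leukemic mice that had been given MSCs, and healthy cells match its control mice. No label gives the alleles or agents behind the pre-leukemic state, the ages of the mice or the surface markers of the sort. Nor does any label say that replicates were separate mice, so each p-value measures only the spread between these samples, which may be technical.

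Cytokines of the interleukin 6 family (Il6, Lif, Il11) bind a receptor of their own and share the signalling chain gp130, encoded by Il6st, which activates JAK kinases and the transcription factor STAT3. Interleukin 1 alpha and beta and tumour necrosis factor act largely through NF-kappa-B, interferon gamma acts through JAK kinases, and interleukin 10 restrains inflammatory gene expression in macrophages. Marrow stromal cells are a known source of interleukin 6, whereas interferon gamma is made mainly by T cells and NK cells, and interleukin 10 by T cells, B cells, plasma cells and macrophages.

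The stretches in front of 5 of these genes are shown: the 3 of the interleukin 6 family, of which Il6 was lowest in pre-leukemic samples and Lif was called in no comparison, and Tnf and Ifng, which were highest there. Each is the RefSeq promoter entry on GRCm38.p6, from 250 bases before to 50 bases after the annotated start, read 5′ to 3′ on the gene's strand. Capitals mark matches on either strand to 5 motifs: the NF-kappa-B consensus, AP-1 (TGANTCA), C/EBP (TTNNGNAAT), the core of the cyclic AMP response element, CRE (ACGTCA) and the TATA box (TATAAA). No match overlapped another in these 5 entries. Of the 2 Il11 entries, the one with a match is shown.
Il6 (chr5:30012864-30013163, plus strand): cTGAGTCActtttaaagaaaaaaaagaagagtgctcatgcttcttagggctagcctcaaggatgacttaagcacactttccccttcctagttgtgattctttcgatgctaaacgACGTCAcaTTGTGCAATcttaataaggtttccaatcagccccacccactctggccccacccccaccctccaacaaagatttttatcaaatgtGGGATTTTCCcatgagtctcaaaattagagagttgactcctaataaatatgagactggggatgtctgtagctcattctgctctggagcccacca
Lif (chr11:4257318-4257617, plus strand): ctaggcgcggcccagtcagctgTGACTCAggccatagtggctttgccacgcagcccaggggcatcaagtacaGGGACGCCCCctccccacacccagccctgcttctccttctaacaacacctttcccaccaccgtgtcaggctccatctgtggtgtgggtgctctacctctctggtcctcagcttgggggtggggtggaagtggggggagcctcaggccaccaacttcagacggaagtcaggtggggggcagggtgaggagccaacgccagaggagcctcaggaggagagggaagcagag
Il11 (chr7:4778092-4778391, minus strand): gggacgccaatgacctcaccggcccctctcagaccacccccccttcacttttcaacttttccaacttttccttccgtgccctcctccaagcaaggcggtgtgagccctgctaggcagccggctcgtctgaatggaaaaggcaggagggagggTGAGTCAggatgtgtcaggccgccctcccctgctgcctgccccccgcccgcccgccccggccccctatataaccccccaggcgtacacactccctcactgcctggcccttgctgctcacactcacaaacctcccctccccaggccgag
Tnf (chr17:35201958-35202257, minus strand): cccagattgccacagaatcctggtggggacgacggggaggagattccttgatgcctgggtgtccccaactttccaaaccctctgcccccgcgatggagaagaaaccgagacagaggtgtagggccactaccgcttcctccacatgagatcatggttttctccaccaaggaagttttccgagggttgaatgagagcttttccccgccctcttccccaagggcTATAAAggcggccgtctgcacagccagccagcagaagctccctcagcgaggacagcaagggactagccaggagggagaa
Ifng (chr10:118440796-118441095, plus strand): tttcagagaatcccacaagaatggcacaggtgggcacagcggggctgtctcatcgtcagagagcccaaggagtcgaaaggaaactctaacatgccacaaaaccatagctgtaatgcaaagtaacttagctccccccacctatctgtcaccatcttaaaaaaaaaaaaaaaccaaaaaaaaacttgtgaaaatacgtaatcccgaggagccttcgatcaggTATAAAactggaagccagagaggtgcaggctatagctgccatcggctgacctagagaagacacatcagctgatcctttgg
The Il6 entry held 4 of the 5 motifs. These were an AP-1 match at positions -249 to -243 from the start, a CRE core at -136 to -131, a C/EBP match at -128 to -120 and an NF-kappa-B match at -44 to -35. The Lif entry held an AP-1 match at -228 to -222 and an NF-kappa-B match at -178 to -169, and the Il11 entry an AP-1 match at -98 to -92. In Tnf and Ifng the TATA box alone was matched, at -29 to -24 and -30 to -25. Among 32851 promoter entries of the same length, 8.46% held the NF-kappa-B consensus, 7.81% the AP-1 motif, 11.5% the C/EBP motif, 7.51% the CRE core and 13.6% the TATA box. A match describes the letters and shows no binding, and entries were found for 8 of the 10 genes.

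Values are FPKM, fragment numbers scaled by transcript length and library size. A value listed as 0 is given as such, because Tbp, a general transcription factor gene that every cell uses, was itself listed at 0 in 2 of the 13 libraries. The spacing of low values gave an estimate of depth: a single read on 1 kb was worth 0.328 to 0.607 FPKM in recovered, 0.152 to 0.221 in pre-leukemic and 0.293 to 0.36 in healthy libraries. Healthy 1 and healthy 3 differed by about the sampling noise, with a chi-square per gene of 1.2 over 210 genes with 100 to 1000 estimated reads and 1.23 over 430 genes with 10 to 100. The lowest values among 23 further within-group pairs were 22.7 and 10.3. They were averaged and counted as 1 sample, so healthy means rest on 2 samples. Immunoglobulin transcripts took up 54.9 to 80.5% of all FPKM in pre-leukemic libraries and at most 0.134% of the others. The label was checked with 12 stromal markers, whose summed level was 1770 to 2566 FPKM in recovered, 97.6 to 251.8 in pre-leukemic and 3138 to 3699 in healthy libraries. None of the 12 was at 0 in every library of a group. The 12 pan-leukocyte markers ran the other way, at 101 to 289, 3129 to 4029 and 168.1 to 195.7 FPKM in recovered, pre-leukemic and healthy libraries. Leukocyte markers thus exceeded stromal markers in every pre-leukemic library, although all carry the MSC label.

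Changes were tested on log2(FPKM + 1) with limma over 13118 genes, and "called" means a Benjamini-Hochberg adjusted p under 0.05. Of the 9 cytokine genes tested, 2 were called higher and 4 lower in recovered than in pre-leukemic samples, and in that comparison 40% of all genes were called, 14.8% higher and 25.1% lower. In pre-leukemic against healthy samples 4 were called higher and 3 lower. There 27.3% of all genes were called, 14.2% higher and 13.1% lower. Limma called none of the 9 between recovered and healthy samples, and 1 of them, Il11, had an unadjusted p under 0.05. Of all genes 2.51% were called there, 0.518% higher and 1.99% lower. Il1a did not pass the filter of 1 FPKM in 3 libraries. Il1b, Tnf, Ifng, Il10 and Il15 passed it through the pre-leukemic libraries alone and Il11 through the healthy ones alone, so these counts describe the genes and give no support beyond each gene's own values. The pre-leukemic samples enter both large comparisons and the healthy samples both comparisons with health, so the comparisons are not independent.

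**Figure D1:**
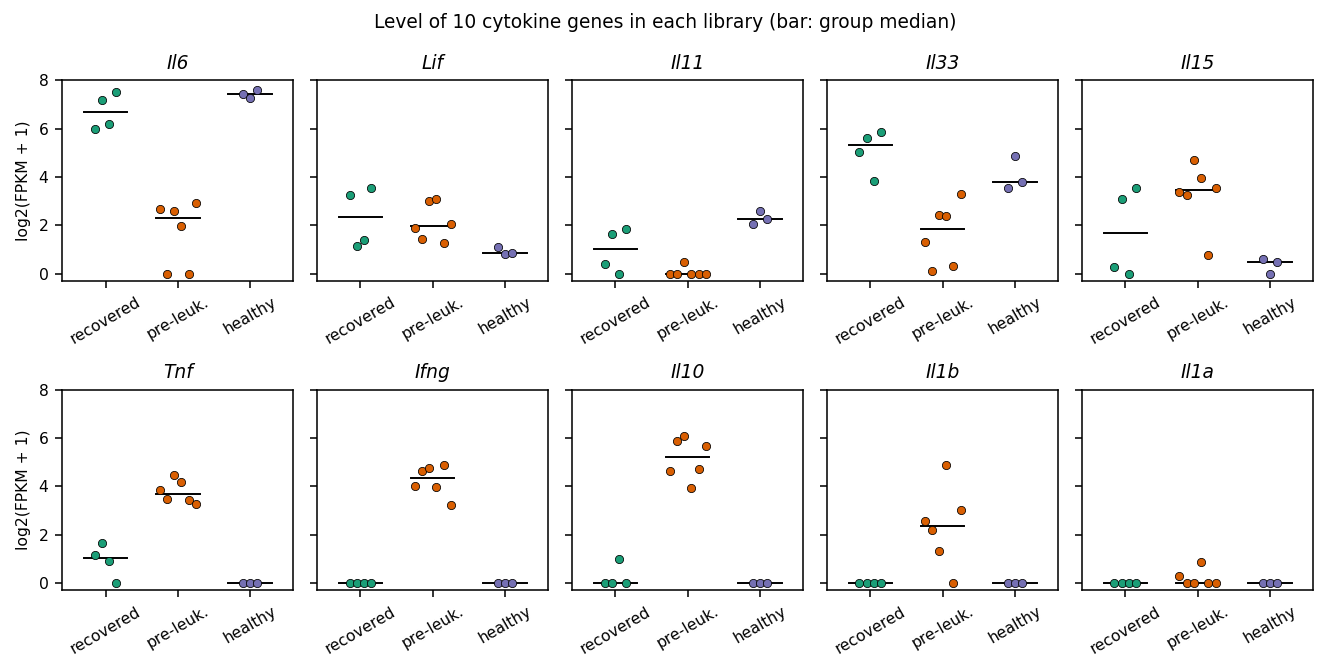
Level of each of the 10 cytokine genes as log2(FPKM + 1) on the vertical axis, 1 point per library, for the 4 recovered, 6 pre-leukemic and 3 healthy libraries, with a bar at the group median. Il6 and Il33 are high in recovered and healthy libraries, while Tnf, Ifng and Il10 are high in all 6 pre-leukemic libraries and at or near 0 in the others.

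Il6, which encodes the founding ligand of its family (GRCm38 chromosome 5, 30013114 to 30019981), was the most abundant of the 10 genes in every recovered and every healthy library. It was at 62.3, 144, 71.6 and 184 FPKM in the 4 recovered libraries, at 5.45, 0, 5.11, 2.95, 0 and 6.62 FPKM in the 6 pre-leukemic libraries, and at 174, 151 and 191 FPKM in the 3 healthy libraries. The recovered range overlapped the healthy range through recovered 4, while no pre-leukemic library reached either. The change was 5.02 ± 0.63 (log2 ± SE, adjusted p = 2.6e-05) in recovered against pre-leukemic samples and -5.68 ± 0.80 (adjusted p = 0.000126) in pre-leukemic against healthy samples. Recovered and healthy samples averaged 115 ± 58.4 (SD, n = 4) and 167 ± 22.3 FPKM (SD, n = 2), a change of -0.67 that was not called (adjusted p = 0.778). The estimated reads behind these values were 122 to 571 in recovered and 423 to 587 in healthy libraries. In pre-leukemic libraries they were 12.8 to 27.7 where the gene was above 0. Within its own library Il6 stood at percentiles 95.4 to 98.3 of all gene entries in recovered, 0 to 79.5 in pre-leukemic and 98.4 to 98.7 in healthy libraries.

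Stromal markers were also lower in pre-leukemic libraries, so Il6 was set against their summed level. This ratio within a library is not moved by any scaling of libraries, and it was chosen after the values were seen. Il6 equalled 3.04 to 8.15% of the summed FPKM of the 12 stromal markers in recovered, 0 to 4.52% in pre-leukemic and 4.09 to 6.03% in healthy libraries. By library the pre-leukemic ratios were 2.16, 0, 3.83, 1.62, 0 and 4.52%, so 2 of the 6 were within the recovered range and pre-leukemic 6 was also within the healthy range. Thy1 and Nt5e took up a larger part of the stromal sum in every pre-leukemic library than in any other library. They were at 39.9 to 70.9 and 11.25 to 27.7 FPKM there, within sums of 97.6 to 251.8 FPKM. Thy1 was at 86.9 to 140.5 FPKM in recovered and 66.1 to 81.5 FPKM in healthy libraries, within far larger sums. Their part in the ratios of Il6 and Il33 was not tested. Relative to Cxcl12 alone, the chemokine that holds blood stem cells in marrow, Il6 was at 7.87 to 29% in recovered, 0 to 24.7% in pre-leukemic and 29.8 to 51.4% in healthy libraries. Here no recovered library reached the healthy range. In such bulk samples, fewer cells of a type and less RNA per cell cannot be told apart.

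**Figure D2:**
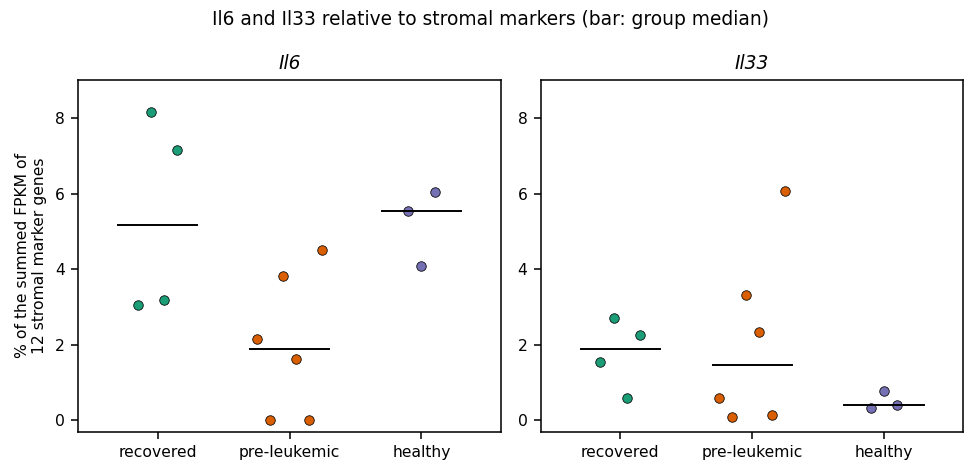
Il6 (left) and Il33 (right) as a percentage of the summed FPKM of 12 stromal marker genes on the vertical axis, 1 point per library, with a bar at the group median, for recovered, pre-leukemic and healthy libraries. Pre-leukemic ratios of Il6 run from 0 to 4.52% and reach into the range of the other groups, and those of Il33 spread from 0.0801 to 6.07% across it.

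Lif, the leukemia inhibitory factor (chromosome 11, 4257557 to 4272514), did not follow Il6. It was at 8.66, 1.22, 1.64 and 10.6 FPKM in recovered, at 2.75, 1.73, 7.08, 7.42, 1.43 and 3.12 FPKM in pre-leukemic, and at 1.12, 0.78 and 0.807 FPKM in healthy libraries. Every recovered and every pre-leukemic library was above the 3 healthy ones, yet recovered libraries fell into a low and a high pair that spanned the pre-leukemic range. Neither the change of 1.44 ± 0.77 in recovered against healthy samples (adjusted p = 0.386) nor that of 1.23 ± 0.73 in pre-leukemic against healthy samples (adjusted p = 0.23) was called. In recovered against pre-leukemic samples it was 0.21 ± 0.57 (adjusted p = 0.797), and its sign turned without recovered 1 (-0.10) or recovered 4 (-0.19).

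Il11, a family member that acts on bone-forming and blood-forming cells (chromosome 7, 4772373 to 4782859), was low throughout. It was at 0.322, 2.14, 0 and 2.58 FPKM in recovered, at 0.402 in pre-leukemic 3 and listed at 0 in the other 5 pre-leukemic libraries, and at 3.16, 5.1 and 3.8 FPKM in healthy libraries. The healthy libraries lay above all others, and the single pre-leukemic value stood on about 3.31 estimated reads. Pre-leukemic samples were lower than healthy ones by limma (-2.30 ± 0.49, adjusted p = 0.00301). Recovered against pre-leukemic samples gave 0.89 ± 0.39 (adjusted p = 0.0825, or 0.0207 without recovered 3) and recovered against healthy samples -1.41 ± 0.52 (adjusted p = 0.185).

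Il33 (chromosome 19, 29925114 to 29960718), an interleukin 1 family alarmin kept in the nucleus of stromal and endothelial cells, came second after Il6 in every recovered and healthy library. It was at 31.3, 47.9, 13.2 and 57.6 FPKM in recovered, at 1.49, 0.0783, 4.43, 4.25, 0.26 and 8.89 FPKM in pre-leukemic, and at 10.6, 28.5 and 13 FPKM in healthy libraries. Every pre-leukemic library was below every other library, and 3 of the 4 recovered libraries were above all healthy ones. The change was 3.43 ± 0.66 (adjusted p = 0.000917) in recovered against pre-leukemic samples and -2.63 ± 0.84 (adjusted p = 0.0306) in pre-leukemic against healthy samples. The second call was lost without healthy 2 (adjusted p = 0.307) and without pre-leukemic 1, 2 or 5 (0.0513 to 0.0522). Recovered and healthy samples averaged 37.5 ± 19.5 (SD, n = 4) and 20.1 ± 11.8 FPKM (SD, n = 2), and the change of 0.80 was not called (adjusted p = 0.732). Against the summed stromal markers Il33 stood at 0.587 to 2.71% in recovered, 0.0801 to 6.07% in pre-leukemic and 0.337 to 0.769% in healthy libraries. The pre-leukemic ratios spanned the other 2 groups. Summed endothelial markers were at 0.748 to 141.9, 6.98 to 20.1 and 3.24 to 3.74 FPKM in recovered, pre-leukemic and healthy libraries. The highest of these sums, in recovered 3, came almost wholly from 1 marker, Emcn at 140.2 FPKM. The part of endothelial cells in the Il33 values was not tested.

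Il1b, the secreted interleukin 1 made by myeloid cells (chromosome 2, 129364570 to 129371139), was listed at 0 in all recovered and all healthy libraries. In the 6 pre-leukemic libraries it was at 4.86, 3.63, 1.48, 28.6, 0 and 7.17 FPKM, so 5 of 6 were above 0 and pre-leukemic 4 stood far above the rest. The mean of 7.61 FPKM fell to 3.43 FPKM without that library. By limma the gene was lower in recovered than in pre-leukemic samples (adjusted p = 0.016). Pre-leukemic against healthy samples missed the threshold (adjusted p = 0.0639, or 0.0134 without pre-leukemic 5). Il1a, its cell-associated partner (chromosome 2, 129299610 to 129309972), was above 0 in just 2 libraries, pre-leukemic 1 at 0.219 and pre-leukemic 4 at 0.853 FPKM, on about 1.99 and 6.98 estimated reads. Il1a and Il1b each overlap an annotated gene on the opposite strand and Ifng one on its own strand, and reads of these pairs cannot be told apart here.

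Tnf, the tumour necrosis factor gene (chromosome 17, 35199381 to 35202007), was at 1.21, 2.15, 0.898 and 0 FPKM in recovered libraries, at 13.6, 10, 21.2, 17.2, 9.68 and 8.67 FPKM in pre-leukemic libraries, and listed at 0 in the 3 healthy libraries. No recovered or healthy library reached a pre-leukemic one. The change in recovered against pre-leukemic samples was -2.85 ± 0.43 (adjusted p = 0.000128), and pre-leukemic samples were higher than healthy ones (adjusted p = 0.000155). The recovered values stood on at most 8.01 estimated reads, and the difference between recovered and healthy samples was not called (adjusted p = 0.47).

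Ifng, the interferon gamma gene (chromosome 10, 118441046 to 118445892), was listed at 0 in all 4 recovered and all 3 healthy libraries. The 6 pre-leukemic libraries had 15.2, 24.2, 25.8, 14.7, 28.6 and 8.26 FPKM, so the gene was present in all of them on about 37.1 to 188 estimated reads. It was called lower in recovered than in pre-leukemic samples (adjusted p = 2.22e-06) and higher in pre-leukemic than in healthy samples (adjusted p = 3.93e-05). At 0 reads, 3 reads would have shown as 0.905 to 1.65 FPKM in recovered and 0.832 to 1.01 FPKM in healthy libraries, limits that cover counting error only.

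Il10, the anti-inflammatory member (chromosome 1, 131019845 to 131024974), was the most abundant of the 10 genes in 4 of the 6 pre-leukemic libraries. It was at 1.01 FPKM in recovered 3, on about 2.01 estimated reads, and listed at 0 in the other 3 recovered libraries and in the 3 healthy ones. In pre-leukemic libraries it was at 23.5, 58.6, 67.4, 14.1, 25.5 and 50.3 FPKM, every one above the single recovered value. It was called lower in recovered than in pre-leukemic samples (adjusted p = 3.08e-06) and higher in pre-leukemic than in healthy samples (adjusted p = 3.54e-05).

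Il15, which sustains NK cells and memory T cells (chromosome 8, 82331632 to 82403222), varied widely among libraries of the same group. It was at 0.21, 7.5, 0 and 10.7 FPKM in recovered, at 9.3, 8.58, 25, 14.7, 0.715 and 10.8 FPKM in pre-leukemic, and at 0.514, 0 and 0.382 FPKM in healthy libraries. All pre-leukemic libraries were above all healthy ones, pre-leukemic 5 narrowly, while the recovered libraries were split between both levels. Pre-leukemic samples were higher than healthy ones by 3.01 ± 1.04 (adjusted p = 0.0451), a call lost without any 1 of 5 pre-leukemic libraries or healthy 2 (adjusted p = 0.0671 to 0.284). Recovered against pre-leukemic samples gave -1.54 ± 0.82 (adjusted p = 0.148, or 0.0447 without pre-leukemic 5) and recovered against healthy samples 1.46 ± 1.10 (adjusted p = 0.572). Recovered 2 and 4, the recovered libraries with Il15, also had the higher sums of T and NK cell markers, 77.8 and 64.6 FPKM, against 10.8 and 8.95 FPKM in recovered 1 and 3. These sums came mainly from Cd3g (58.6 FPKM) and Nkg7 (18.9) in recovered 2 and from Trbc2 (31.5) and Nkg7 (31.3) in recovered 4. Lck went the other way, at 8.03 and 3.77 FPKM in recovered 1 and 3 and 0.209 and 0.504 FPKM in recovered 2 and 4. The part of these markers in Il15 was not tested.

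**Figure D3:**
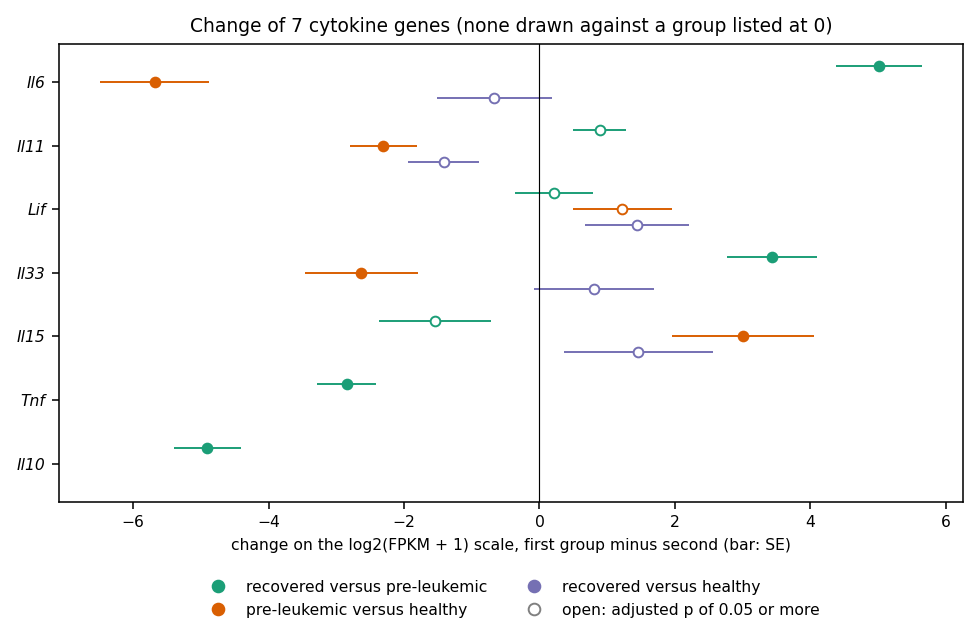
Change of 7 of the cytokine genes on the log2(FPKM + 1) scale (horizontal axis, first group minus second, bar: SE) in recovered versus pre-leukemic, pre-leukemic versus healthy and recovered versus healthy samples, with filled points for adjusted p under 0.05 and none drawn against a group listed at 0. Il6 and Il33 lie right of 0 in recovered versus pre-leukemic and left of 0 in pre-leukemic versus healthy samples, and no recovered versus healthy point is filled.

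The make-up of the 10 genes together differed more than their sum. The summed FPKM of the 10 was 88.4 to 265 in recovered, 66.1 to 158 in pre-leukemic and 185 to 209 in healthy libraries, so recovered libraries overlapped both other groups. Il6 made up 59.9 to 81% of that sum in recovered, 0 to 7.13% in pre-leukemic and 81.5 to 91.9% in healthy libraries. Il33 was next in recovered libraries with 15 to 30.1%, against 0.0733 to 8.56% in pre-leukemic and 5.59 to 15.3% in healthy libraries. The pre-leukemic sum was spread over several genes instead: Il10 made up 13.5 to 54.8% of it, Ifng 7.96 to 43.2% and Tnf 8.35 to 17.8%. Libraries of the pre-leukemic group also differed among themselves, since Il1b led in pre-leukemic 4 with 27.3% and Ifng in pre-leukemic 5 with 43.2%, and Il10 led in the other 4.

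**Figure D4:**
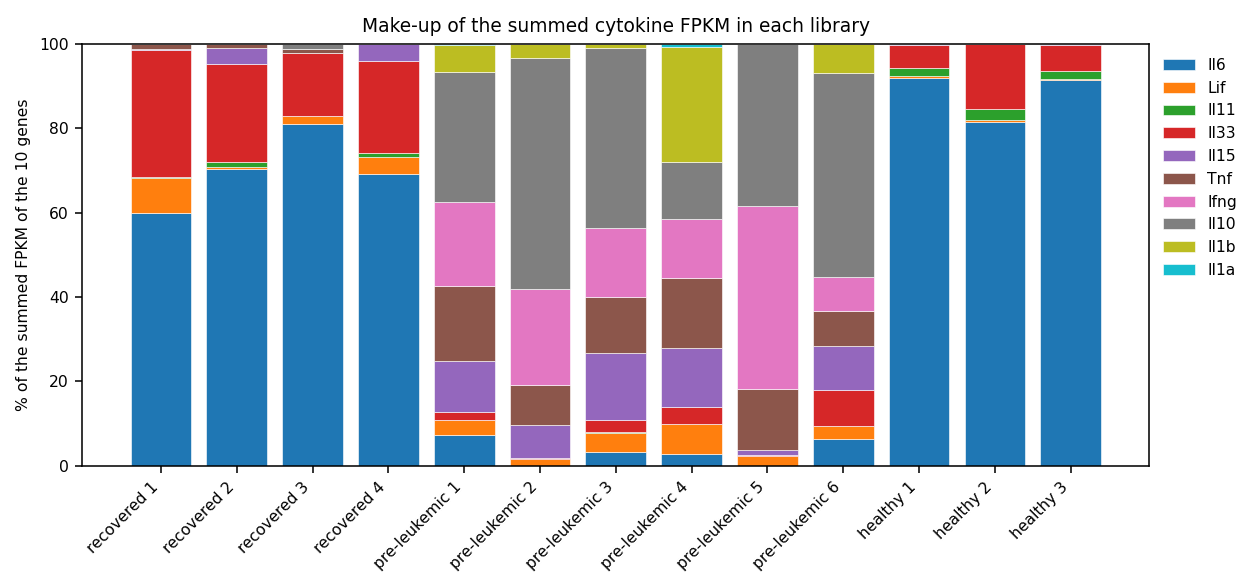
Share of each of the 10 cytokine genes in their summed FPKM (vertical axis, percent) in each of the 13 libraries, stacked by gene. Il6 fills 59.9 to 81% of the bar in recovered and 81.5 to 91.9% in healthy libraries, whereas Il10, Ifng, Tnf and other genes share the bar in pre-leukemic libraries.

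Summed leukocyte markers of each set below were highest in pre-leukemic libraries, as Tnf, Ifng and Il10 were, whereas summed erythroid markers were lowest there. The part of these markers in the cytokine results was not tested. The 14 T and NK cell markers summed to 8.95 to 77.8 FPKM in recovered, 790.3 to 1140 in pre-leukemic and 22.2 to 38 in healthy libraries. By limma 13 of the 14 were lower in recovered than in pre-leukemic samples, against 25.1% of all genes. In pre-leukemic against healthy samples 12 were higher, against 14.2% of all genes. Markers at 0 in both other groups, such as Cd3d, passed the filter through the pre-leukemic libraries alone. The counts of this paragraph thus describe the markers and give no support beyond their own values. Of the 14, Cd3d, Cd3e, Zap70, Il2rb, Gzma and Gzmb were at 0 in every recovered library, and Cd3d, Gzma, Gzmb, Cd8a, Cd4 and Klrd1 in every healthy one. Others were present: Cd3g, a chain of the T cell receptor complex, was at 0 to 58.6 FPKM in recovered and 3.74 to 26.1 FPKM in healthy libraries, and Trbc2, another, at 31.5 FPKM in recovered 4. The 11 monocyte and macrophage markers summed to 16.5 to 112, 3415 to 5170 and 22.6 to 25.2 FPKM in recovered, pre-leukemic and healthy libraries. Most of every pre-leukemic sum was Ly6c2, at 2135 to 3728 FPKM. Csf1r, Emr1 and Mrc1 were at most 2.2, 0.25 and 0.876 FPKM there, and Cd14 was at 0 to 7.46 FPKM, against 0 to 49.8 in recovered libraries. Of 9 markers tested, 7 were lower in recovered than in pre-leukemic and 6 higher in pre-leukemic than in healthy samples. The 12 plasma and B cell markers summed to 162.3 to 428.6, 48080 to 85550 and 249.7 to 282.4 FPKM in the same order of groups, with 11 of 12 called in each of those comparisons. Prdm1 and Tnfrsf17, both of plasma cells, were at 0 in all recovered and healthy libraries, and the B cell gene Ms4a1 in all healthy ones. The 12 neutrophil markers summed to 16.3 to 644.6, 3131 to 15270 and 55.2 to 89.2 FPKM in recovered, pre-leukemic and healthy libraries, with 11 lower in recovered than in pre-leukemic and 9 higher in pre-leukemic than in healthy samples. The 10 mast cell and basophil markers, all at 0 in recovered and healthy libraries, summed to 7.03 to 25.3 FPKM in pre-leukemic ones. Erythroid markers summed to 1650 to 2638 FPKM in recovered libraries, above the 0 to 6.51 FPKM of pre-leukemic and the 35.4 to 49.7 FPKM of healthy ones. Against Ptprc, the gene of the leukocyte antigen CD45, the pre-leukemic libraries had Il10 at 9.33 to 62.3%, Ifng at 9.73 to 18.9% and Tnf at 6.25 to 15.5%, so Il10 spread the most. Ptprc itself was at 80.7 to 154.9 FPKM in these libraries, and the highest Il10 ratio was in pre-leukemic 6, which had the lowest Ptprc.

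Of the interleukin 6 family's receptor subunits, Il6st, Il11ra1 and Lifr were called in the same directions as Il6, and Il6ra was not called. The shared chain Il6st was at 37.5 ± 10.5 FPKM in recovered, 6.03 ± 1.84 in pre-leukemic and 51.6 ± 8.57 in healthy samples (SD, n = 4, 6 and 2). It changed by 2.46 ± 0.36 (adjusted p = 0.000104) in recovered against pre-leukemic and -2.94 ± 0.46 (adjusted p = 0.000295) in pre-leukemic against healthy samples. Il11ra1, the interleukin 11 receptor, stood out by level, at 434 to 1646 FPKM in recovered, 10.2 to 41.5 in pre-leukemic and 296 to 373 in healthy libraries. It changed by 5.04 ± 0.40 (adjusted p = 4e-07) and -3.76 ± 0.51 (adjusted p = 9.21e-05) in the same comparisons. The Lif receptor Lifr was at 14.1 ± 2.15, 5.1 ± 2.88 and 22.8 ± 2.35 FPKM in recovered, pre-leukemic and healthy samples, with adjusted p of 0.0154 and 0.00945, the second call being lost without healthy 2 (0.0936). Il6ra, the ligand-binding interleukin 6 receptor, was low, at 0.38 to 8.21 FPKM in recovered, 0.967 to 9.39 in pre-leukemic and 2.66 to 3.12 in healthy libraries. It differed by less than their spread, with adjusted p of 0.645, 0.968 and 0.918 in the 3 comparisons.

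Receptors of the other cytokines did not share a direction. Il1r1, the signalling interleukin 1 receptor, was at 15 to 26.2 FPKM in recovered, 0.0474 to 1.62 in pre-leukemic and 6.2 to 22.7 in healthy libraries (3.80 ± 0.45, adjusted p = 1.31e-05, and -3.13 ± 0.56, adjusted p = 0.000881). Its partner chain Il1rap was at 0 to 2.22 FPKM in recovered and 2.6 to 6.22 in pre-leukemic libraries and was called lower in recovered samples (adjusted p = 0.0222), a call lost without recovered 3 or recovered 4 (0.0534 and 0.072), with quantile normalization (-0.68, adjusted p = 0.25, against -1.36) and on the TPM scale (-0.46, adjusted p = 0.479). Tnfrsf1a, the broadly expressed TNF receptor, was at 195 ± 29.9, 21.8 ± 6.3 and 179 ± 56.3 FPKM in recovered, pre-leukemic and healthy samples (adjusted p = 1.67e-06 and 4.27e-05). Ifngr2, the signalling chain of the interferon gamma receptor, was at 25 ± 9.74, 3.89 ± 1.69 and 24.7 ± 3.78 FPKM (adjusted p = 0.000276 and 0.00227). The ligand-binding chain Ifngr1 was at 165 ± 64.4, 106 ± 35.5 and 121 ± 27.2 FPKM and was called in no comparison (lowest adjusted p = 0.132). The receptor chains of Il10 and Il15 that leukocytes carry were higher in pre-leukemic libraries. Il10ra was at 0.111 to 2.41, 17.4 to 27.7 and 0.263 to 0.489 FPKM in recovered, pre-leukemic and healthy libraries, with adjusted p of 6.89e-06 and 6.74e-05. Il2rg, the common gamma chain, was at 0 to 7.1, 156 to 211 and 7.39 to 13.3 FPKM. Il2rb, also one of the T and NK cell markers, was listed at 0 in recovered libraries, at 14 to 33.5 FPKM in pre-leukemic and 0.115 to 0.14 in healthy ones. The more widely expressed Il10rb was at 18.5 ± 7.79, 48.9 ± 12.9 and 14 ± 2.45 FPKM (adjusted p = 0.00666 and 0.0134), and both calls were lost on the TPM scale, the second also without healthy 2 (0.0646). Il15ra, Il1rl1 (the Il33 receptor) and Tnfrsf1b were called in no comparison. Il15ra was at 0.294, 10.1, 0.48 and 12.1 FPKM in recovered libraries and so split them as Il15 did. In pre-leukemic libraries it was at 11.7 to 35.3 FPKM, and it was listed at 0 in healthy 2 but at 36.6 and 35 FPKM in healthy 1 and 3.

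**Figure D5:**
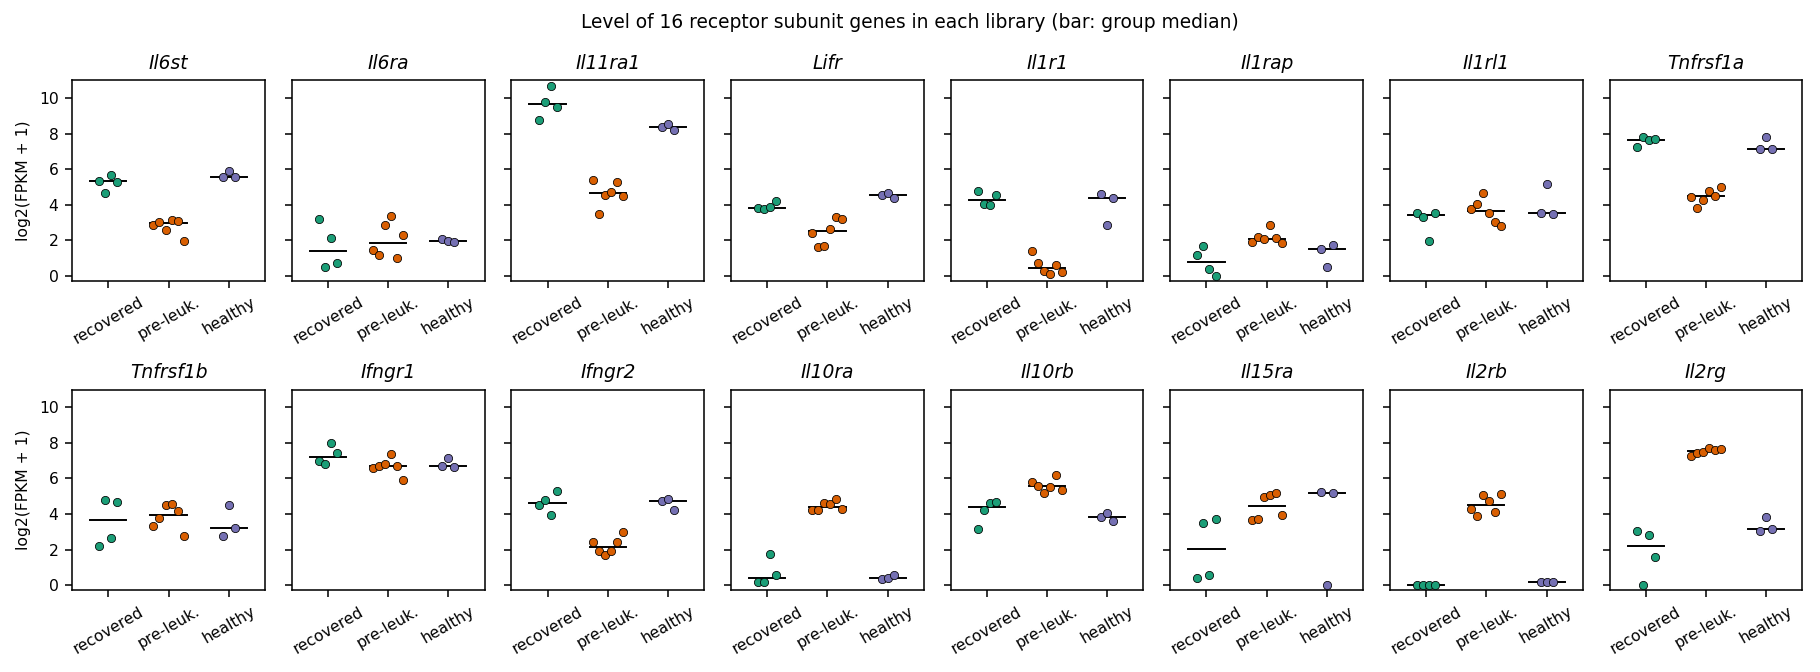
Level of 16 receptor subunit genes as log2(FPKM + 1) on the vertical axis, 1 point per library, with a bar at the group median, for recovered, pre-leukemic and healthy libraries. Il6st, Il11ra1, Lifr, Il1r1, Tnfrsf1a and Ifngr2 are lowest in pre-leukemic libraries, while Il10ra, Il10rb, Il2rb and Il2rg are highest there.

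Genes of each pathway were counted from 11 lists, of which 127 genes other than the 10 were tested. The medians of their changes stand beside those of all 13118 genes, which were -0.41 in recovered against pre-leukemic, 0.20 in pre-leukemic against healthy and -0.08 in recovered against healthy samples. Of the 127, 36 were higher and 48 lower in recovered than in pre-leukemic samples, and 45 were higher and 26 lower in pre-leukemic than in healthy samples. Of all genes 14.8% were higher and 25.1% lower in the first comparison, and 14.2% and 13.1% in the second. In recovered against healthy samples 6 of the 127 were higher and 1 lower, and at an unadjusted p under 0.05 they were 18 and 7. Of all genes 0.518% were called higher there and 1.99% lower. Some listed genes, such as Ebi3 and Il18rap, passed the filter through the pre-leukemic libraries alone, so the counts describe the lists only. The 13 tested genes of interleukin 6 family receptors and signalling had a median of 0.90 in recovered against pre-leukemic samples, with 7 higher and 2 lower. In pre-leukemic against healthy samples the median was -0.49, with 1 higher and 5 lower. Socs3, the feedback inhibitor of gp130 signalling, was at 178 ± 31.1, 30.3 ± 8.77 and 320 ± 22.1 FPKM in recovered, pre-leukemic and healthy samples (adjusted p = 6.81e-06 and 9.66e-06). The oncostatin M receptor Osmr was at 11.2 to 24.3, 0 to 1.23 and 22.8 to 36.9 FPKM. Stat3 itself was at 145 ± 71.1, 38 ± 5.26 and 81 ± 19.5 FPKM in those groups. It was called in recovered against pre-leukemic samples (adjusted p = 0.000305) and short of the threshold in pre-leukemic against healthy samples (adjusted p = 0.054). Il27ra, a receptor of lymphocytes, went the other way, at 6.79 to 17.9 FPKM in pre-leukemic libraries and 0.646 FPKM in recovered 4, and listed at 0 in the other recovered and the healthy libraries.

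Among other ligands of the family, Ebi3 and Osm were lower in recovered than in pre-leukemic samples. Ebi3 and Osm were higher in pre-leukemic than in healthy samples, Osm not without healthy 2 (adjusted p = 0.0697). Ebi3, a subunit of interleukins 27 and 35, was at 16.5 to 44.9 FPKM in all 6 pre-leukemic libraries and listed at 0 in every other one. The 15 targets of STAT3 and C/EBP had medians of 1.80 in recovered against pre-leukemic samples, with 9 higher and 4 lower, and -0.84 in pre-leukemic against healthy samples, with 2 higher and 7 lower. Timp1, an inhibitor of matrix proteases, was at 889 to 1270 FPKM in recovered, 0.246 to 13.8 in pre-leukemic and 630 to 704 in healthy libraries. Of this list 3 genes were higher and Fos was lower in recovered than in healthy samples. The acute-phase gene Saa3 was at 276, 477, 983 and 435 FPKM in recovered libraries, against 6.98, 22.4 and 5.99 FPKM in healthy libraries (5.20 ± 0.67, adjusted p = 0.00109). In pre-leukemic libraries it was at 2.17 FPKM in pre-leukemic 6 and listed at 0 elsewhere. Fos, an AP-1 subunit, was at 572 to 1499 FPKM in recovered and 2610 to 3317 FPKM in healthy libraries (adjusted p = 0.0253, or 0.348 without healthy 2). Cebpb, a transcription factor of the Il6 promoter's C/EBP class, was at 143, 285, 586 and 348 FPKM in recovered, against 50.1, 64.6 and 53.1 FPKM in healthy libraries (adjusted p = 0.0261, or 0.161 without healthy 2), and at 4 to 8.98 FPKM in pre-leukemic libraries. Lcn2, also one of the neutrophil markers, was at 13.9 to 152 FPKM in recovered and 218 to 1015 FPKM in pre-leukemic libraries and listed at 0 in healthy ones.

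The interleukin 1 and NF-kappa-B genes were mixed. Il1rn, the natural antagonist of the interleukin 1 receptor, was at 69.3, 38.9, 49.4 and 38.3 FPKM in recovered libraries, at 0 to 7.18 FPKM in pre-leukemic and at 11.2, 7.5 and 8.38 FPKM in healthy libraries. Recovered libraries were thus above all others, by 3.86 ± 0.52 against pre-leukemic samples (adjusted p = 4.35e-05), and the change of 2.34 ± 0.69 against healthy samples missed the threshold (adjusted p = 0.1). The interleukin 18 inhibitor Il18bp, of the same list of 3 tested genes, was at 4.86 to 13.7 FPKM in pre-leukemic libraries and at most 0.941 FPKM in the others. Of 16 tested interleukin 1 family receptor and signalling genes, 3 were higher and 9 lower in recovered than in pre-leukemic samples (median -1.12). The pre-leukemic against healthy counts were 7 higher and 3 lower (median 1.28). On the TPM scale the balance was lost, with 4 higher and 4 lower (median 0.21) in the first comparison and 6 higher and 5 lower (median 0.24) in the second. Casp1, the protease that matures interleukin 1 beta, was at 2.39 to 8.9 FPKM in recovered, 36.7 to 69.4 in pre-leukemic and 0.264 to 0.728 in healthy libraries, with no overlap among the groups. Il18rap, a receptor chain of interleukin 18, and Sigirr, an inhibitory receptor, were likewise higher in pre-leukemic libraries, at 3.07 to 12.1 and 11.4 to 29.5 FPKM, against at most 1.93 FPKM in any other library. Of 14 tested TNF receptor and signalling genes, 3 were higher and 5 lower in recovered than in pre-leukemic samples (median -1.10). In pre-leukemic against healthy samples 6 were higher and 1 lower (median 1.16). On the TPM scale the counts were 3 higher and 4 lower (median 0.18) and 3 higher and 3 lower (median -0.34). Ltb, encoding lymphotoxin beta of lymphocytes, was at 0 to 0.477 FPKM in recovered, 107 to 346 in pre-leukemic and 0.865 to 1.95 in healthy libraries. Tnfaip3, which terminates NF-kappa-B signalling, was at 7.38 to 16.6, 99.2 to 761 and 6.79 to 9.69 FPKM in recovered, pre-leukemic and healthy libraries. Birc3, an inhibitor of cell death, was at 3.44 to 9.79, 39.6 to 84.7 and 10.2 to 12.9 FPKM in recovered, pre-leukemic and healthy libraries, its call against healthy samples being lost on the TPM scale (adjusted p = 0.456).

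The 18 tested NF-kappa-B targets, by contrast, had medians of 1.75 in recovered against pre-leukemic samples, with 8 higher and 3 lower, and of -1.22 in pre-leukemic against healthy samples, with 2 higher and 7 lower. The matrix protease Mmp13 was at 310 to 665 FPKM in recovered, 0 to 4.47 in pre-leukemic and 656 to 824 in healthy libraries, and its relative Mmp3 at 63.9 to 165, 0 to 7.15 and 32.2 to 38.4 FPKM. Cxcl1, a chemokine that draws neutrophils, was at 2410 to 5150 FPKM in recovered, 6.05 to 124 in pre-leukemic and 1991 to 2319 in healthy libraries. Ccl2, which draws monocytes, was at 642 to 937, 0 to 26.7 and 225 to 414 FPKM in the same order. Recovered libraries were above healthy ones in both chemokines without a call (adjusted p = 0.761 and 0.58). Cxcl5, another neutrophil chemokine, was at 45, 14.4, 2.59 and 21.2 FPKM in recovered libraries, listed at 0 in all pre-leukemic libraries, and at 0, 0 and 0.457 FPKM in healthy libraries, and was the 1 gene of this list called between recovered and healthy samples (adjusted p = 0.0158, or 0.188 without healthy 2).

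Targets of interferon gamma were mostly high where Ifng itself was. Of 13 tested, 1 was higher and 8 lower in recovered than in pre-leukemic samples (median -2.07), and 10 were higher and none lower in pre-leukemic than in healthy samples (limma, median 3.19, with 0 lower also at an unadjusted p under 0.05). Cd274, the checkpoint ligand PD-L1, was at 0.31 to 1.28 FPKM in recovered, 19.1 to 49.1 in pre-leukemic and 0 to 0.283 in healthy libraries. Gbp4, an interferon-induced GTPase, was at 0.247 to 3.02 FPKM in recovered, 30 to 64.8 in pre-leukemic and 1.21 to 8.65 in healthy libraries. Igtp, another, was at 6.58 to 17.8, 62.1 to 113 and 0.22 to 8.9 FPKM in the same order. The peptide transporter gene Tap1 was at 1.47 to 23.8, 80.4 to 118 and 10.3 to 11.1 FPKM. On the TPM scale Gbp4 and Tap1 were not called in pre-leukemic against healthy samples (adjusted p = 0.0598 and 0.148), nor was Igtp in recovered against pre-leukemic samples (0.0644). Cxcl9, Cxcl10, Iigp1, Gbp3 and Cd274 of this list were also above the healthy libraries in every recovered library, where Ifng was listed at 0. Gbp3 was at 0.721 to 7.42 FPKM in recovered and 0 to 0.143 FPKM in healthy libraries. At an unadjusted p under 0.05 by limma, 5 of the list were higher in recovered than in healthy samples and 1, Gbp4, was lower. Cxcl9 was at 9.78, 50.1, 80.2 and 31.2 FPKM in recovered libraries, at 0 to 4.87 FPKM in pre-leukemic and at 0.946, 2.01 and 0.792 FPKM in healthy libraries, so recovered libraries were above all others. Cxcl10 was at 228, 176, 644 and 420 FPKM in recovered, 140 to 783 FPKM in pre-leukemic and 22.1, 18.9 and 25.3 FPKM in healthy libraries. Cxcl10 was also called higher in pre-leukemic than in healthy samples (3.89 ± 0.58, adjusted p = 0.000189). Iigp1, an interferon-induced GTPase, was at 7.67 to 77.2 FPKM in recovered, 7.49 to 37.1 in pre-leukemic and 0.821 to 3.57 in healthy libraries, and its change of 2.61 ± 0.82 in recovered against healthy samples missed the threshold (adjusted p = 0.123). Both chemokines were called higher in recovered than in healthy samples, by 3.87 ± 0.90 (adjusted p = 0.0372) for Cxcl9 and 3.87 ± 0.61 (adjusted p = 0.00486) for Cxcl10. The chemokines' calls were lost without healthy 2 (adjusted p = 0.242 and 0.0981), and that of Cxcl9 also without recovered 2, recovered 3, recovered 4, pre-leukemic 1 or pre-leukemic 2 (adjusted p = 0.0504 to 0.0634). With only recovered and healthy samples in the limma fit, the recovered against healthy calls of Fos, Cxcl5, Cxcl9, Cxcl10, Cebpb and Lcn2 were all lost (adjusted p = 0.0658 to 0.316), and that of Saa3 was not.

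Of 12 tested receptor and signalling genes of interferon gamma, 2 were higher and 5 lower in recovered than in pre-leukemic samples (median -0.92). Against healthy samples, pre-leukemic samples had 5 higher and 2 lower (median 0.90). The balance turned on the TPM scale, with 4 higher and 3 lower (median -0.33) in the first comparison and 3 higher and 4 lower (median 0.61) in the second. Socs1, the feedback inhibitor of this pathway, was at 42.7 to 212 FPKM in recovered, 4 to 13.7 in pre-leukemic and 56 to 66.2 in healthy libraries. Stat4, a lymphocyte transcription factor, was at 0 to 0.949, 9.78 to 29.4 and 0 to 0.35 FPKM in recovered, pre-leukemic and healthy libraries. Irf8, of myeloid and B cells, was at 2.19 to 9.65, 43.9 to 290.1 and 0.346 to 1.59 FPKM in them. Irf9, a transcription factor of interferon signalling, was at 19.9 to 26.3, 58.1 to 71.9 and 6.45 to 15.1 FPKM in recovered, pre-leukemic and healthy libraries. On the TPM scale Irf9 was called in neither large comparison (adjusted p = 0.992 and 0.171). The interleukin 10 list held, besides the family and its receptors, transcriptional regulators such as Bcl3 and Prdm1. Of its 6 tested genes, 1 (Bcl3) was higher and 3 (Prdm1, Il10ra and Il10rb) were lower in recovered than in pre-leukemic samples (median -1.01). In pre-leukemic against healthy samples 3 were higher and 1 lower (median 0.93). On the TPM scale both comparisons had 2 higher and 2 lower (medians 0.38 and -0.05). The nuclear inhibitor Bcl3 went against the other called genes of this list. It was at 51.6 to 132 FPKM in recovered, 26.7 to 48.1 in pre-leukemic and 71.6 to 127 in healthy libraries. Its call in pre-leukemic against healthy samples was lost without healthy 2, where the change was -1.12, against -1.49. Its call in recovered against pre-leukemic samples was lost without recovered 3 (adjusted p = 0.0556), with quantile normalization (0.0533) and with equal sums without immunoglobulin genes (0.0752). The list of the Il15 receptor and common gamma chain cytokines held receptor and signalling genes besides cytokine genes. Of its 12 tested genes, 6, none of them a cytokine gene, were lower in recovered than in pre-leukemic samples (median -2.25). The other 6 were not called. In pre-leukemic against healthy samples 6 were higher (median 2.34). Il7r, the interleukin 7 receptor, was at 0.117 to 4.68, 17.5 to 101 and 0.349 to 0.863 FPKM, and Il21r at 0 to 0.656, 6.49 to 30.3 and 0.145 to 0.328 FPKM in recovered, pre-leukemic and healthy libraries.

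For each of the 9 tested genes the genes of most similar profile were found by Pearson's r of log2(FPKM + 1) over the 12 samples. These values describe samples that share the group differences, so many genes come close. Il6 was nearest to Postn (0.979) and Klf4 (0.972), and the 200th gene in its order still had 0.91. Il33 was nearest to Bri3 (0.939) and Sept8 (0.929), and Il11 to Ppp1r3c (0.975) and Adora1 (0.968). Among the genes high in pre-leukemic libraries, Ifng was nearest to Foxp3 (0.996) and Ccr2 (0.994). Il10 was nearest to Cytip (0.988) and Cd69 (0.988), and Tnf to Casp1 (0.975) and Faah (0.974). Il1b was nearest to Mettl15 (0.953) and Sidt1 (0.95), and Il15 to Gmps (0.949) and Zfp64 (0.929). Lif had looser neighbours, among them Rasgef1b (0.863), and its 200th gene had 0.59.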

How the data were processed

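RNA extraction and cDNA synthesis followed published work, and a Nextera XT kit was used for the libraries, per the labels' protocols. The deposited values are FPKM, made by the authors with bcl2fastq, TopHat, Cufflinks 2.2.1 and Cuffnorm on mm10, per the submitters' processing notes. No source used here gives the library-size method, gene annotation or strand setting. The size method can shift whole libraries when immunoglobulin RNA dominates some of them.

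No read counts were used, so depth was estimated from the steps of low FPKM values of 5240 genes with 1 transcript of at least 800 bp (83.7 to 88.5% of values were whole within 0.06 on the log2 scale). Reads and limits are approximate and cover counting error only. limma 3.58.1 in R 4.3.3 (lmFit, eBayes with trend) was fitted to log2(FPKM + 1) of 12 samples in 3 groups, with 9 residual degrees of freedom, for genes that reached 1 FPKM in 3 or more libraries. All tests were two-sided, and p-values were Benjamini-Hochberg adjusted over 13118 genes. Changes of low genes are understated on this scale. The fit was tested on simulated data.

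Results of a few genes are not reported here. The 10 genes and the lists were chosen with earlier results of these data known. Of each list, up to 4 called genes with the smallest p, each reaching 1 FPKM throughout the higher group, were named, besides 16 receptor subunits. Osm, Stat3, Fos, Cxcl5, Cxcl9, Cxcl10, Iigp1, Gbp3, Cd3g and Trbc2 were named after their values were seen. So were the markers Nkg7, Lck, Emcn, Thy1, Nt5e, Ly6c2, Csf1r, Emr1, Mrc1 and Cd14. Alternatives were quantile normalization, the TPM scale, equal sums without immunoglobulin genes, a pseudocount of 0.1, no filter, a mean of at least 5 FPKM, 13 separate libraries, the replicate block, only the groups compared, and leaving out each library. Coordinates are from GENCODE on GRCm38. Summaries and plots were made with pandas 2.3.3, numpy 2.4.6, matplotlib 3.10.9 and scipy 1.17.1 under Python 3.11.15.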

Additional observations from a re-analysis of the deposited data

Results flagged for a closer look

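Single libraries stood apart from their group by Dixon's test for 4 cytokine genes, and chance flags about 1 group in 20. For Il11 and Il10 every other library was at 0, so any value above 0 would have stood apart, and here it rested on about 3.31 and 2.01 estimated reads. Il11 was at 0.402 FPKM in pre-leukemic 3 and listed at 0 in the other 5 pre-leukemic libraries. Il1a was at 0.853 FPKM in pre-leukemic 4, with the next library at 0.219 FPKM. Il1b was at 28.6 FPKM in the same library, pre-leukemic 4, with the next at 7.17 FPKM. Il10 was at 1.01 FPKM in recovered 3 and listed at 0 in the other 3 recovered libraries. Summed monocyte and macrophage markers, mostly Ly6c2 (3488 FPKM), were at 4746 FPKM in pre-leukemic 4, within the 3415 to 5170 FPKM of the group. Pan-leukocyte markers in recovered 3 were at 289 FPKM, against 101 to 120.5 FPKM in the other recovered libraries. The part of either set of markers in these values was not tested.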

How the results depend on the processing

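Of 25 single-gene results of the 10 cytokines, 19 kept their direction and side of the threshold under every alternative run for them. Lif in recovered versus pre-leukemic samples turned sign with equal sums without immunoglobulin genes (-0.0197) and ran from -0.19 to 0.61 leaving out single libraries. Il15 in pre-leukemic versus healthy samples was also lost with quantile normalization (adjusted p = 0.0513), on the TPM scale (0.124) and without the filter (0.086), and Il33 with a pseudocount of 0.1 (0.0613), without the filter (0.0551) and without pre-leukemic 1, 2 or 5 (0.0513 to 0.0522). Il11 in recovered versus pre-leukemic samples was called with quantile normalization (0.0386) and on the TPM scale (0.0414), and Il1b in pre-leukemic versus healthy samples with a pseudocount of 0.1 (0.0331) and with 13 separate libraries (0.0209). Of 99 results of other genes, 79 kept theirs, 18 were lost under some alternative and 2 turned sign, on the TPM scale in recovered versus pre-leukemic samples, Irf9 (0.00969) and Fos (0.27). The cause was not tested. Of the 10 genes, 6 to 7 were called in recovered versus pre-leukemic samples leaving out single libraries and 5 to 7 otherwise, and 5 to 7 and 5 to 8 in pre-leukemic versus healthy samples.

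Over all genes, 329 calls in recovered versus healthy samples became 211 with quantile normalization, 122 at a mean of at least 5 FPKM, where fewer genes were tested, 767 with 13 separate libraries and 103 with only those groups in the fit. Leaving out single libraries gave 82 (without healthy 2) to 682 (without recovered 1), 1716 (without healthy 2) to 4112 in pre-leukemic versus healthy samples, where 3583 were called, and 4636 to 5261 in recovered versus pre-leukemic samples, where 5244 were. Without healthy 2 the lone healthy sample is assumed to vary like the other groups. The TPM scale moved the median change by 0.99 in recovered versus pre-leukemic, -1.28 in pre-leukemic versus healthy and -0.18 in recovered versus healthy samples, quantile normalization by 0.33, -0.13 and 0.11, and equal sums without immunoglobulin genes by -0.23, 0.11 and -0.13. Genes higher and lower were 1945 and 3299 in recovered versus pre-leukemic samples, against 3768 and 1213 on the TPM scale and 2460 and 2424 with quantile normalization. In pre-leukemic versus healthy samples they were 1858 and 1725, against 791 and 4200 on the TPM scale, and in recovered versus healthy samples 68 and 261, against 66 and 145 with quantile normalization.

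The replicate numbers did not pair the samples: over 10 same-numbered pairs the correlation of deviations from group means was -0.02 to 0.03, and 2 of 13 libraries matched their own number best. With the replicate number as a block on 13 separate libraries, 4527, 3700 and 303 genes were called in recovered versus pre-leukemic, pre-leukemic versus healthy and recovered versus healthy samples, and 6, 8 and 0 of the 10 cytokines. The block ended no call of the 10. In recovered versus pre-leukemic samples it ended those of Il1rap (adjusted p = 0.0658) and Bcl3 (0.0574) and turned Lif to -0.0220. Il1b in pre-leukemic versus healthy samples was called with the block (adjusted p = 0.0157), and already with the 13 separate libraries without it (0.0209).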
